A study of Homo sapiens with 10 samples.

Results

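The amino acid transporter families are 59 genes of 7 solute carrier families, taken as every symbol of SLC1A, SLC3A, SLC6A, SLC7A, SLC36A, SLC38A or SLC43A followed by a number alone, out of 28281 symbols in the deposited counts. Antisense and pseudogene symbols were left out. The families hold 7 SLC1A, 2 SLC3A, 19 SLC6A, 13 SLC7A, 4 SLC36A, 11 SLC38A and 3 SLC43A genes. They were measured by poly(A) RNA-seq in 10 libraries of A549 and H1944, both established human lung adenocarcinoma cell lines, in a study of transcription after loss of APE1, a DNA repair endonuclease and redox factor encoded by APEX1. The groups were wild-type A549 (WT, n = 3), A549 with APE1 knockout (KO, n = 3), wild-type H1944 (n = 2) and H1944 with APE1 knockout (n = 2), with no drug or time point in the labels. A549 grew in DMEM and H1944 in RPMI1640 with sodium pyruvate, both with serum, so line and medium cannot be told apart. The names of the A549 KO columns (16, 65 and 66) carry no genotype and were assigned to A549 KO by elimination, as every other group of the labels has its own columns. The labels do not say whether libraries came from separate cultures or clones, so the spread that p-values rest on may be that of technical repeats only.

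Amino acids cross the plasma membrane and the lysosomal membrane through these carriers, and several carriers exchange one amino acid for another, so that uptake of one substrate is paid for with export of a different one. The SLC7 light chains reach the surface bound to a heavy chain. SLC3A2 (CD98 or 4F2hc) is the partner of SLC7A5, SLC7A6, SLC7A7, SLC7A8, SLC7A10 and SLC7A11, and SLC3A1 (rBAT) is that of SLC7A9. In carcinoma cells SLC7A5 is known for leucine uptake, SLC1A5 for glutamine uptake and SLC7A11 for cystine uptake, which feeds glutathione synthesis.

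The title of the series refers to DNA G-quadruplexes, stacked structures of guanine runs, so the 250 bases before each member's RefSeq start (GRCh38.p14) were searched for 4 runs of at least 3 G with 1 to 7 bases between them, on both strands. The windows of 4 members are shown because SLC7A7 and SLC6A8 are the genes whose response differed between the lines and SLC7A5 and SLC38A2 are an abundant leucine exchanger and glutamine carrier. Capitals mark the matched stretches, and each window is written 5′ to 3′ on the gene's strand. They lie at chr14:22819792-22820041 (SLC7A7, minus strand), chrX:153687676-153687925 (SLC6A8, plus strand), chr16:87869508-87869757 (SLC7A5, minus strand) and chr12:46372774-46373023 (SLC38A2, minus strand).
SLC7A7: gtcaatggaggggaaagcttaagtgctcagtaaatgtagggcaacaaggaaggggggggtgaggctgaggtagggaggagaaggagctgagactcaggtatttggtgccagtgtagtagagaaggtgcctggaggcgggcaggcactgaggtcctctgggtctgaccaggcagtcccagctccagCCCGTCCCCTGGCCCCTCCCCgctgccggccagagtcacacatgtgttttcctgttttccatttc
SLC6A8: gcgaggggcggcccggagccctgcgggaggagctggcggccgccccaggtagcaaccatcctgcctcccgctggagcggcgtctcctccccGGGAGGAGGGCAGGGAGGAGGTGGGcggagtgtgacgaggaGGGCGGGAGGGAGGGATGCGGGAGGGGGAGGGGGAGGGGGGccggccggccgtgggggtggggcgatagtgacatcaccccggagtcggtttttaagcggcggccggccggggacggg
SLC7A5: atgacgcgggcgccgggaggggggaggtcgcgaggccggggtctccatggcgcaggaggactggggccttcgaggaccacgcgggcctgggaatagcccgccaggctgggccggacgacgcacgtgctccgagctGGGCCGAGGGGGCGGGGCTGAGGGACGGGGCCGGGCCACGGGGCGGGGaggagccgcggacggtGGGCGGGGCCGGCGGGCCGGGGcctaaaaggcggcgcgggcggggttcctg
SLC38A2: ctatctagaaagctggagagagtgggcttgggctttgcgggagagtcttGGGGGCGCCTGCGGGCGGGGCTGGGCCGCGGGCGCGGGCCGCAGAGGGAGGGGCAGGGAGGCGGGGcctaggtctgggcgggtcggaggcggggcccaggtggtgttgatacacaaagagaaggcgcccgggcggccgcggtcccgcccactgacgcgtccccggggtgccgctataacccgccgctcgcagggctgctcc
In SLC7A7 the match is on the opposite strand, where the C runs read as G runs, and the gene's other RefSeq windows hold no match. In SLC6A8, SLC7A5 and SLC38A2 the G runs are on the gene's own strand. A window was listed for 44 of the 59 members and 22 of these held the pattern. It stood in 23.5% of all listed windows, counted per window and not per gene. Counted per gene, it stood in 38.1% of the genes tested in H1944 that had a window. Of the members tested there with a window, 17 of 27 (63.0%) held it. A match is a description of the letters, not of a folded structure or of binding.

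Libraries held 18314224 to 30219850 counts. APEX1 checked the labels, in CPM (counts scaled to library size by edgeR's TMM method within each line). A549 WT 1, 2 and 3 had 167, 254 and 237 CPM, against 60.1, 62.9 and 108 CPM in A549 KO 16, 65 and 66. H1944 had 244 and 243 CPM in WT and 87.0 and 87.6 CPM in KO. All KO libraries lay below the WT libraries of their line, and the fall passed in H1944 (edgeR adjusted p = 6.43e-19) and not in A549 (edgeR adjusted p = 0.521). In A549, WT 1 and KO 65 stand apart: they hold counts of the ribosomal gene RNA28SN4, which is at 0 in the other 4 A549 libraries. The share of ribosomal RNA genes, with nuclear and mitochondrial ones pooled, runs the other way. It was 0.284% for WT 1 and 0.337% for KO 65, and at most 0.316% in H1944. In WT 2, WT 3, KO 16 and KO 66 it was 6.45%, 6.46%, 14.2% and 7.19%. This pooled share cannot tell nuclear from mitochondrial ribosomal RNA, and which genes raise it was not tested. Variation between replicates beyond counting error (edgeR's biological coefficient of variation) was 39.0% in A549 and 4.74% in H1944, so that a change of a given size is far harder to detect in A549. Of the defining lung markers, NKX2-1 and SFTPB had at most 5 counts in any library of either line, while KRT8 and KRT18 were abundant in both lines. Summed CPM of the 5 fibroblast markers was 5.15 to 8.25 in A549 WT and 10.7 to 16.9 in A549 KO, without overlap and mostly from COL1A1, with DCN at 0, and 13.5 to 15.6 in H1944 WT and 12.1 to 14.2 in H1944 KO. The leukocyte markers gave 29.3 to 42.9 CPM in A549 and 27.0 to 54.4 CPM in H1944, nearly all from CD68, with CD3E at 0, and the endothelial markers at most 2.44 CPM.

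Of the 59 genes, 4 had 0 counts in all 10 libraries (SLC1A3, SLC6A2, SLC6A5 and SLC7A13), and 21, those 4 included, never exceeded 10 counts in any library. A count of 0 allows up to 0.0993 to 0.164 CPM, depending on the library (3 counts, counting error only). Enough reads for a test were present for 30 genes in A549 and 35 in H1944. SLC6A12, SLC7A8, SLC7A9, SLC38A3 and SLC38A5 were tested in H1944 and not in A549, SLC38A11 only for the difference between the lines, and SLC6A11 and SLC6A19, at up to 11 and 20 counts, in no comparison. Compared per kilobase of annotated exon, the same genes led in every group: SLC7A5, then SLC3A2, then SLC1A5. SLC7A5 stood at 393 ± 23.3 CPM per kb in A549 WT and 527 ± 32.7 in H1944 WT. SLC3A2 followed at 164 ± 40.2 and 213 ± 2.43 CPM per kb, and SLC1A5 at 99.5 ± 9.03 and 148 ± 5.73. The next ranks in A549 WT were SLC38A2, SLC6A6, SLC7A11 and SLC38A1, at 39.5 ± 24.8, 23.1 ± 10.7, 21.7 ± 14.2 and 20.9 ± 9.53 CPM per kb, which did not differ beyond their SD. In H1944 WT the next ranks were SLC7A11, SLC38A2, SLC6A6, SLC38A1 and SLC7A7, at 63.1 ± 1.63, 48.2 ± 1.20, 42.4 ± 2.49, 34.3 ± 0.769 and 33.4 ± 0.857 CPM per kb. Of these, the levels of SLC38A1 and SLC7A7 lay within their SD of each other. The ± values are SD, with n = 3 in A549 and n = 2 in H1944.

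Knockout against wild-type moved the carriers of H1944 in both directions. There, 12 genes rose and 14 fell of 35 tested (edgeR quasi-likelihood, Benjamini-Hochberg adjusted p under 0.05 over all genes), which is 74.3%. Over all 16626 genes tested in H1944, 67.1% passed in either direction, 33.2% higher and 33.9% lower, so the share of carriers that passed is near that of all genes. Fewer cells of a type and less RNA per cell cannot be told apart in bulk RNA. At least 2-fold falls were found for SLC7A9, SLC7A2, SLC38A5, SLC6A8, SLC7A7 and SLC43A1, and SLC38A3 alone rose at least 2-fold (all genes: 11.3% lower and 10.1% higher at that size). The KO libraries lay wholly above the WT libraries for 14 tested carriers and wholly below for 17 (all genes: 41.1% and 41.4%), and DESeq2 called 10 higher and 13 lower (all genes: 27.6% and 28.4%). The median log2 fold change was -0.20 over the tested carriers and -0.0065 over all genes tested. With all 10 libraries in 1 fit, which lends H1944 the spread of A549, 0 carriers rose and 3 fell (all genes: 6.66% and 7.61%). Epithelial markers of H1944 moved with the knockout: of 7 tested lung and epithelial markers 2 rose and 4 fell, EPCAM from 70.2 ± 1.89 CPM to 0.949 ± 0.252 CPM and CDH1 from 211 ± 0.432 CPM to 8.02 ± 0.280 CPM (SD, n = 2), while KRT8 and KRT18 rose. Summed CPM of the list was 9796 to 9953 in H1944 WT and 17501 to 17899 in H1944 KO. Of 3 tested neuronal and glial markers 2 rose, SNAP25 and GFAP, with a summed CPM of 5.77 to 6.33 in WT and 34.5 to 39.2 in KO. Of 5 tested fibroblast markers 2 rose, COL3A1 (log2 fold change 3.62) and DCN (1.18), and 1 fell, COL1A1 (-0.78). The leukocyte marker CD68 rose from 27.6 ± 1.21 CPM to 53.3 ± 1.37 CPM. The part of these markers in the changes of the carriers, and that of the fibroblast markers in A549, was not tested.

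In A549, 0 of 30 tested carriers passed (edgeR), against 0.00633% of all 15806 genes tested, and 3 carriers had an unadjusted p under 0.05, where 5.66% of all genes had. DESeq2 called SLC7A7 and SLC6A16 higher (all genes: 0.513% higher), 1 fit of all 10 libraries called SLC7A7 (all genes: 0.0566% higher) and limma-voom called 0 carriers. The KO libraries lay wholly above the WT libraries for SLC7A7 and SLC6A16 (all genes: 6.11%) and wholly below them for SLC1A4 (all genes: 4.6%). Fold changes were above 0 for 23 of the 30 carriers (all genes: 52.2%), with a median log2 fold change of 0.16 against 0.018 over all genes tested.

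**Figure D1:**
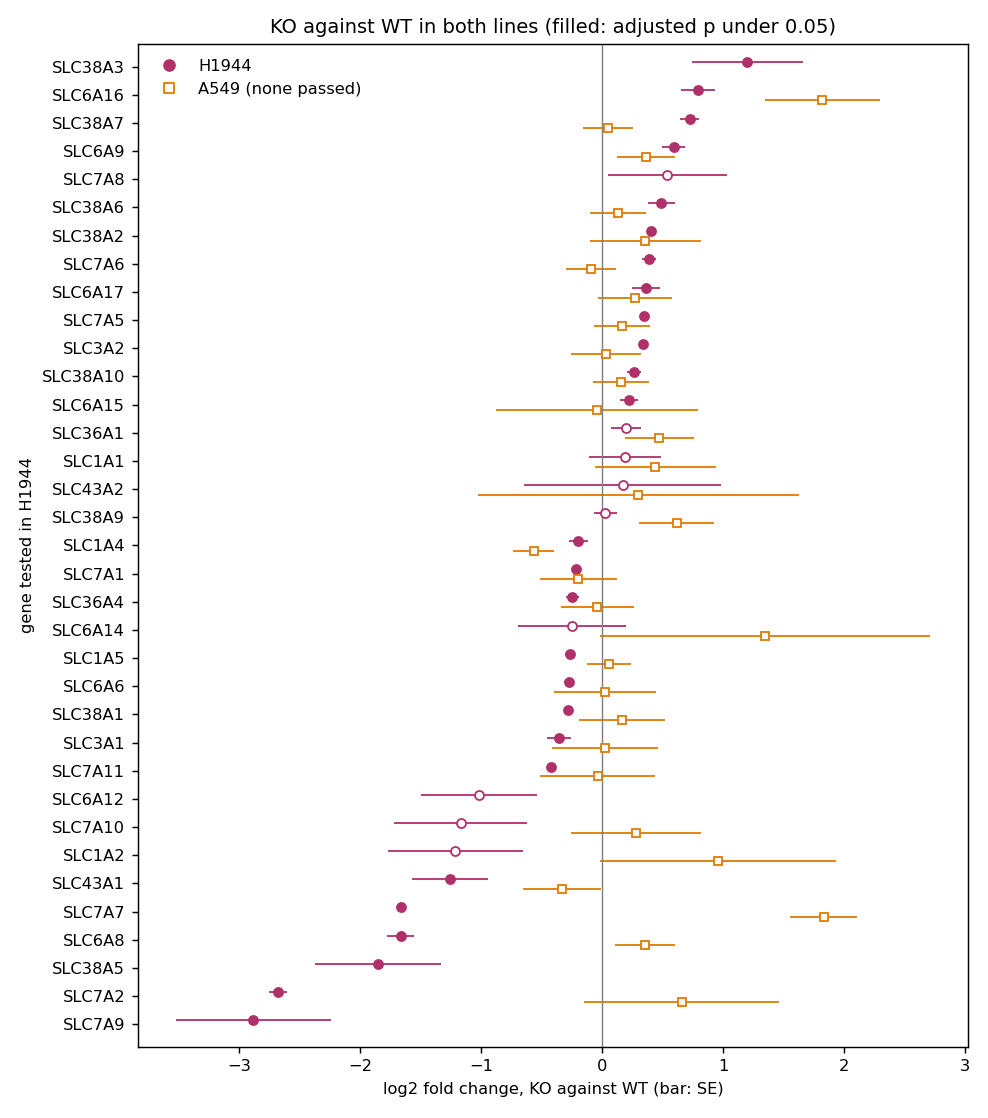
Log2 fold change of KO against WT (x axis) with its SE (bars) for each carrier tested in H1944 (rows), in H1944 (circles, filled where the edgeR adjusted p is under 0.05) and, where tested, in A549 (open squares). SLC7A7 lies on opposite sides of 0 in the 2 cell lines, at -1.66 in H1944 and 1.83 in A549, and no A549 carrier passed.

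The mRNAs of both subunits of the main leucine exchanger rose in H1944 KO. SLC3A2 (chr11:62856109-62888860, hg38), the CD98 heavy chain, was at 1109.8 and 1092 CPM in the WT libraries and 1405 and 1371 CPM in the KO libraries (log2 fold change 0.33, SE 0.029, adjusted p = 1.64e-09 by edgeR). SLC7A5 (chr16:87830023-87869507), its light chain for large neutral amino acids, was at 2610.0 and 2390.4 CPM in the WT libraries and 3238 and 3131 CPM in the KO libraries (log2 fold change 0.35, SE 0.037, adjusted p = 5.77e-07 by edgeR). KO libraries lay above WT libraries for both genes, by 26.1% and 27.4%. In A549, SLC3A2 gave 609, 977 and 961 CPM across WT 1, 2 and 3 versus 849.8, 642 and 1114 CPM across KO 16, 65 and 66 (log2 fold change 0.033, SE 0.29, adjusted p = 0.995 by edgeR), with overlapping groups and a sign that changed with the scaling. SLC7A5 gave 1735, 1929 and 1925 CPM across WT 1, 2 and 3 versus 2191, 1613 and 2468 CPM across KO 16, 65 and 66 (log2 fold change 0.17, SE 0.23, adjusted p = 0.995 by edgeR), with overlapping groups too. The difference between the lines did not pass for either gene (edgeR adjusted p = 0.677 and 0.725). The count ratio of SLC7A5 to SLC3A2 ran from 1.97 to 2.85 over the 10 libraries.

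SLC7A7 (y+LAT1, chr14:22773222-22819791), which exports arginine and lysine in exchange for neutral amino acids and sodium, had changes of opposite sign in the 2 cell lines. H1944 had 168 and 175 CPM in the WT libraries and 54.3 and 54.2 CPM in the KO libraries, so KO was 3.16-fold lower (log2 fold change -1.66, SE 0.041, adjusted p = 4.93e-19 by edgeR). A549 had 13.0, 12.4 and 11.8 CPM across WT 1, 2 and 3 versus 51.3, 28.4 and 52.8 CPM across KO 16, 65 and 66. All A549 KO libraries lay above all WT libraries, yet the test over all genes did not pass (log2 fold change 1.83, SE 0.28, adjusted p = 0.505 by edgeR). The call in A549 depended on the spread assumed, with adjusted p = 0.103 with the library set as a term, 0.0402 with all 10 libraries in 1 edgeR fit and 6.61e-06 by DESeq2, over a range of 6.61e-06 to 1.00 among all alternatives. Within the library sets the A549 log2 ratios were 2.08 (KO 16), 1.12 (KO 65) and 2.12 (KO 66), so the value was as large within the set without RNA28SN4 and smaller in the other. The difference between the lines, A549 change minus H1944 change, was 3.46 (SE 0.34, edgeR adjusted p = 0.000822). After knockout the levels of the 2 cell lines were closer, at 44.2 ± 13.7 CPM (SD, n = 3) and 54.3 ± 0.0172 CPM (SD, n = 2), than in wild-type cells, at 12.4 ± 0.592 CPM and 172 ± 4.40 CPM. These CPM were scaled within each line, so levels across the lines compare only roughly.

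SLC7A6 (y+LAT2), the other exchanger of this type, rose in H1944, from 48.0 and 52.4 CPM in WT to 65.005 and 66.2 CPM in KO (log2 fold change 0.39, SE 0.055, adjusted p = 2.17e-06 by edgeR). SLC7A6OS, on the opposite strand, shares 3371 exonic bases with it and rose as well (log2 fold change 0.41, SE 0.055, adjusted p = 1.02e-06 by edgeR). Whether the authors counted by strand is not stated, so reads of the 2 genes cannot be told apart there. In A549, SLC7A6 overlapped between the groups, at 88.9, 66.3 and 67.9 CPM in WT and 81.0, 68.1 and 60.3 CPM in KO (log2 fold change -0.091, SE 0.21, adjusted p = 0.995 by edgeR). Per kilobase, the level ratio of SLC7A7 to SLC7A6 was 0.216, 0.276 and 0.258 across A549 WT 1, 2 and 3 versus 0.937, 0.616 and 1.29 across A549 KO 16, 65 and 66. In H1944 it was 5.19 and 4.93 in WT and 1.23 and 1.21 in KO. By this ratio SLC7A7 exceeded SLC7A6 in every H1944 library and, of the A549 libraries, in KO 66 alone. As 3371 of the 7588 exonic bases of SLC7A6 are shared with SLC7A6OS, the order is uncertain in the KO libraries of both lines.

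SLC7A11 (xCT, chr4:138164097-138242349), which imports cystine against glutamate, fell in H1944, from 598 and 620.1 CPM in WT to 453 and 454 CPM in KO (log2 fold change -0.42, SE 0.032, adjusted p = 1.45e-10 by edgeR). In A549 it had 367, 128 and 131 CPM across WT 1, 2 and 3 versus 239.7, 242 and 129 CPM across KO 16, 65 and 66 (log2 fold change -0.037, SE 0.47, adjusted p = 0.995 by edgeR). WT 1 was the highest A549 library, KO 16 and KO 65 were near each other, WT 2, WT 3 and KO 66 were lowest, and the groups overlapped. The antisense gene SLC7A11-AS1 shares 865 exonic bases with SLC7A11. It was counted 598, 27 and 34 times across A549 WT 1, 2 and 3, 367, 292 and 39 times across KO 16, 65 and 66, 533 and 454 times in H1944 WT and 204 and 192 times in H1944 KO. The antisense gene fell in H1944 (log2 fold change -1.73, SE 0.11, adjusted p = 7.74e-12 by edgeR), and its share of the reads of SLC7A11 was not tested.

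The remaining CD98 light chains were near the detection limit. SLC7A8 (LAT2), a neutral amino acid exchanger, had 1, 2 and 1 counts across A549 WT, 1, 2 and 7 across A549 KO, 11 and 8 in H1944 WT and 17 and 20 in H1944 KO, and did not pass in H1944 (log2 fold change 0.54, SE 0.49, adjusted p = 0.345 by edgeR). SLC7A10 (Asc-1), a carrier of small neutral amino acids, was at 0.443 and 1.05 CPM in H1944 WT and 0.246 and 0.402 CPM in KO (log2 fold change -1.17, SE 0.55, adjusted p = 0.0661 by edgeR). It did not pass with all 4 H1944 libraries, and without H1944 WT 1 it did, at a log2 fold change of -1.68 (edgeR adjusted p = 0.0309). A549 had 0.777, 1.19 and 1.09 CPM in WT and 0.469, 1.38 and 1.87 CPM in KO, with overlapping groups.

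Taken per kilobase as a share of the 6 CD98 light chain mRNAs, SLC7A5 made up 83.6 ± 1.26% in H1944 WT and 91.0 ± 0.222% in H1944 KO (SD, n = 2). SLC7A11 went from 10.0 ± 0.731% to 6.38 ± 0.146% and SLC7A7 from 5.31 ± 0.386% to 1.43 ± 0.03004%. SLC7A6 held 1.05 ± 0.116% and 1.17 ± 0.0397%. Among these mRNAs the share of SLC7A5 was thus larger, and those of SLC7A11 and SLC7A7 smaller, in H1944 KO. In A549, SLC7A7 held 0.567 ± 0.0362% in WT and 1.76 ± 0.272% in KO (SD, n = 3), without overlap, while SLC7A5 held 91.9 ± 3.91% and 91.5 ± 2.40%, with overlap. These shares are descriptions with no test of their own.

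**Figure D2:**
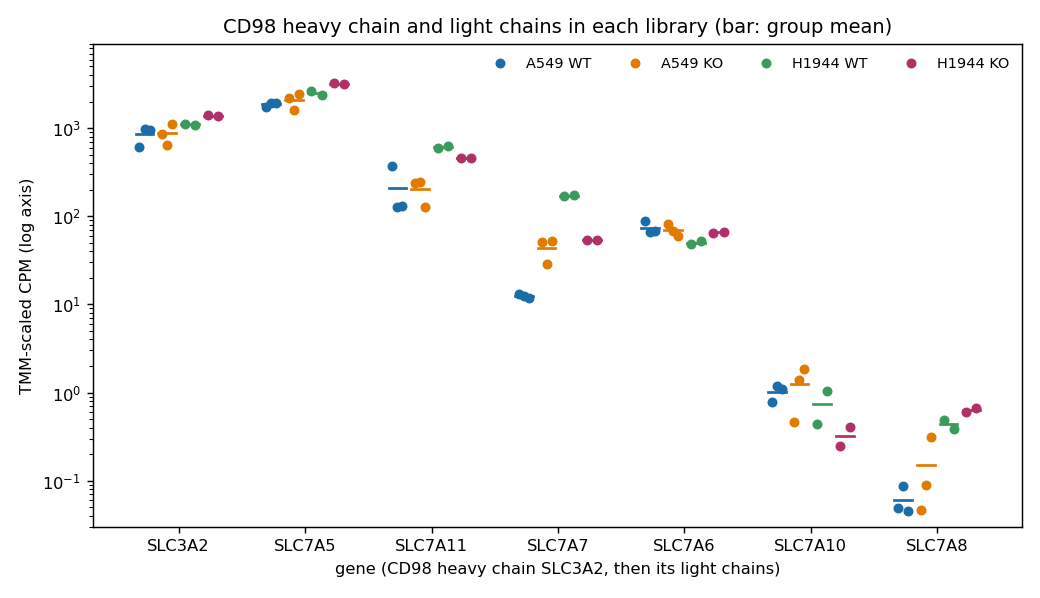
TMM-scaled CPM (log y axis) of the CD98 heavy chain SLC3A2 and its light chains (x axis) in each library (points) with the group mean (bars), for A549 WT and KO (n = 3 each) and H1944 WT and KO (n = 2 each). SLC7A7 spans the widest range of the well-expressed light chains, from 11.8 CPM in A549 WT to 175 CPM in H1944 WT, with CPM scaled within each line.

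The mRNAs of SLC3A1 and its light chain, the cystine and dibasic amino acid system, were lower in H1944 KO. SLC3A1, the rBAT heavy chain, was at 19.0 and 22.2 CPM in the WT libraries and 17.0 and 15.1 CPM in the KO libraries (log2 fold change -0.36, SE 0.099, adjusted p = 0.00318 by edgeR). PREPL overlaps SLC3A1 by 1923 exonic bases on the opposite strand and AC013717.1 by 1761 on the same strand. The share of their reads in SLC3A1 was not tested. Without H1944 WT 2 the call of SLC3A1 was lost (log2 fold change -0.24). SLC7A9, its light chain, had 17 and 23 counts in WT and 6 and 1 in KO (log2 fold change -2.88, SE 0.64, adjusted p = 0.000479 by edgeR), a fall seen at low counts whose log2 size ran from -4.58 to -2.09 as single libraries were left out. In A549, SLC3A1 gave 25.5, 11.8 and 12.3 CPM in WT and 23.6, 17.6 and 9.24 CPM in KO, with overlap (log2 fold change 0.023, SE 0.44, adjusted p = 0.996 by edgeR), and SLC7A9 had at most 5 counts.

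The arginine and lysine importers that need no heavy chain also fell in H1944. SLC7A2 (CAT2, chr8:17494069-17570566) had 63.8 and 65.8 CPM in the WT libraries and 9.47 and 10.7 CPM in the KO libraries, a 6.43-fold fall (log2 fold change -2.68, SE 0.075, adjusted p = 3.67e-18 by edgeR), while SLC7A1 (CAT1), the widely expressed form, fell by 13.7%, from 147 and 145 to 126 and 126 CPM (log2 fold change -0.21, SE 0.038, adjusted p = 3.84e-05 by edgeR). In A549, SLC7A2 had 30.2, 6.92 and 6.89 CPM across WT 1, 2 and 3 versus 11.4, 46.6 and 11.2 CPM across KO 16, 65 and 66 (log2 fold change 0.66, SE 0.81, adjusted p = 0.995 by edgeR). The high A549 libraries were WT 1 and KO 65, those with RNA28SN4 counts, and the groups overlapped. Within the sets the log2 ratios were 0.73 (KO 16), 0.63 (KO 65) and 0.70 (KO 66), all above 0. The difference between the lines was 3.36 (SE 1.13) and did not pass (edgeR adjusted p = 0.121), whereas it passed by DESeq2 (adjusted p = 0.0124) and without A549 WT 1 (edgeR adjusted p = 0.0224). SLC7A1 was at 120.3, 60.8 and 65.3 CPM in A549 WT and 89.0, 68.0 and 58.0 CPM in A549 KO. SLC7A3, SLC7A4 and SLC7A14 had at most 1 count in any library.

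**Figure D3:**
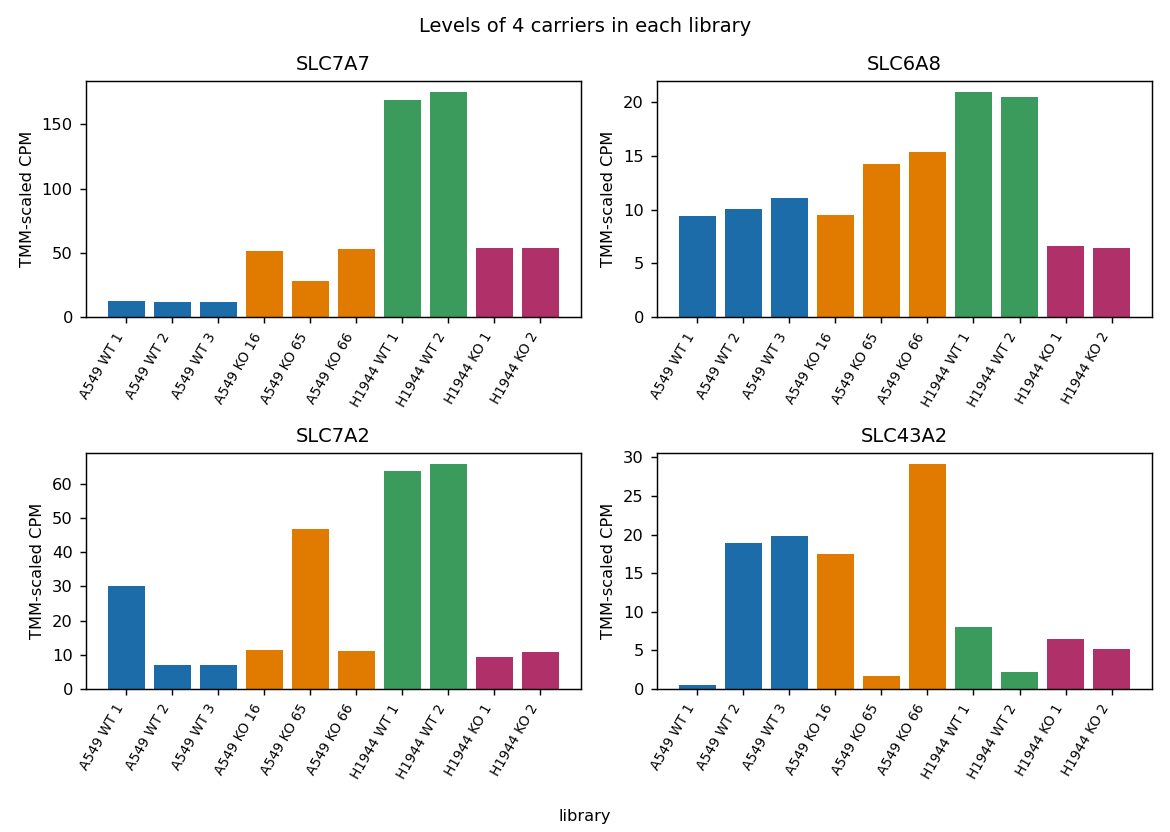
TMM-scaled CPM (y axis, from 0) of SLC7A7, SLC6A8, SLC7A2 and SLC43A2 in each of the 10 libraries (bars). SLC7A7, SLC6A8 and SLC7A2 are lower in both H1944 KO libraries than in both H1944 WT libraries, and SLC7A2 and SLC43A2 follow the split of A549 WT 1 and KO 65 from the other A549 libraries.

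In the SLC1A family of glutamate and neutral amino acid carriers, 0 rose and 2 fell of 4 tested in H1944 (all genes: 33.2% and 33.9%). SLC1A5 (ASCT2), the main glutamine carrier of this family, was at 506 and 479 CPM in the WT libraries and 414 and 402 CPM in the KO libraries (log2 fold change -0.27, SE 0.035, adjusted p = 5.38e-07 by edgeR). AC008622.2, on the opposite strand, shares 780 of the 3332 exonic bases of SLC1A5. The part of its reads in the level and the change of SLC1A5 was not tested. SLC1A4 (ASCT1), a serine and alanine carrier, was at 28.5 and 31.8 CPM in the WT libraries and 27.0 and 25.6 CPM in the KO libraries (log2 fold change -0.20, SE 0.077, adjusted p = 0.0295 by edgeR), a call that DESeq2 did not make (adjusted p = 0.138). In A549, SLC1A4 had 29.1, 28.1 and 27.9 CPM across WT 1, 2 and 3 versus 19.1, 18.3 and 19.9 CPM across KO 16, 65 and 66. All A549 KO libraries lay below all WT libraries, by similar log2 ratios within the sets of -0.55 (KO 16), -0.67 (KO 65) and -0.49 (KO 66), and the test over all genes did not pass (log2 fold change -0.57, SE 0.17, adjusted p = 0.709 by edgeR). SLC1A5 overlapped in A549, at 297, 349.5 and 348 CPM in WT and 302, 334 and 398 CPM in KO. The glutamate carriers were low: SLC1A1 was at 1.11 to 4.17 CPM and SLC1A2 at 0.0881 to 1.24 CPM over the 10 libraries, and neither passed in either line.

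In the SLC6A family of sodium and chloride coupled carriers, 4 rose and 2 fell of 8 tested in H1944 (all genes: 33.2% and 33.9%). SLC6A8 (chrX:153687926-153696593), the creatine carrier, had 20.9 and 20.5 CPM in the WT libraries and 6.62 and 6.403 CPM in the KO libraries, a 3.17-fold fall (log2 fold change -1.67, SE 0.11, adjusted p = 1.61e-11 by edgeR). In A549 it had 9.42, 10.1 and 11.1 CPM across WT 1, 2 and 3 versus 9.48, 14.2 and 15.4 CPM across KO 16, 65 and 66, with KO 16 inside the WT range (log2 fold change 0.35, SE 0.25, adjusted p = 0.995 by edgeR). The difference between the lines was 1.995 (SE 0.34, edgeR adjusted p = 0.00917). It did not pass without H1944 WT 1, KO 1 or KO 2 (edgeR adjusted p = 0.0521, 0.0643 and 0.0682), when the fit then had 1 fewer H1944 library. SLC6A10P, a pseudogene near-identical to SLC6A8, had 0 counts in every A549 library, 3 and 4 counts in H1944 WT and 54 and 47 in H1944 KO, where SLC6A8 had 471 and 429 counts in WT and 188 and 191 in KO. How reads that match both were counted is not stated, so the values of SLC6A8 are uncertain.

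SLC6A16, an orphan member of the family, rose in H1944 from 5.71 and 6.58 CPM in WT to 11.0 and 10.3 CPM in KO (log2 fold change 0.79, SE 0.14, adjusted p = 4.52e-05 by edgeR). In A549 it had 4.81, 2.86 and 1.90 CPM across WT 1, 2 and 3 versus 5.86, 14.7 and 13.1 CPM across KO 16, 65 and 66 (log2 fold change 1.82, SE 0.48, adjusted p = 0.650 by edgeR). All A549 KO libraries lay above all WT libraries, with log2 ratios within the sets of 1.28 (KO 16), 1.61 (KO 65) and 2.44 (KO 66), and the difference between the lines did not pass (log2 fold change 1.02, SE 0.63, adjusted p = 0.387 by edgeR). SLC6A9 (GLYT1), a glycine carrier, rose in H1944 from 13.9 and 13.0 to 20.8 and 19.7 CPM. The neutral amino acid carriers SLC6A17 and SLC6A15 rose as well, with log2 fold changes of 0.36 and 0.22 (edgeR adjusted p = 0.00938 and 0.0110), though DESeq2 did not call SLC6A15 (adjusted p = 0.0746). SLC6A6, the taurine carrier, fell from 364 and 335 to 283 and 296 CPM (log2 fold change -0.27, SE 0.039, adjusted p = 3.70e-06 by edgeR). SLC6A14, a carrier of broad specificity, did not pass in either line and was highest in A549 WT 1 and KO 65, at 2.57 and 6.79 CPM, against at most 0.657 CPM in the other A549 libraries. Of the 11 family members too low to test in H1944, among them the noradrenaline, dopamine and serotonin carriers SLC6A2, SLC6A3 and SLC6A4, none but SLC6A11 and SLC6A19 exceeded 10 counts in any H1944 library.

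The SLC38A carriers for glutamine and other small neutral amino acids moved in both directions in H1944. There, 5 rose and 2 fell of 8 tested (all genes: 33.2% and 33.9%). SLC38A2 (SNAT2), an amino acid starvation responsive carrier, rose from 313 and 324 to 422 and 419 CPM (log2 fold change 0.40, SE 0.033, adjusted p = 6.83e-10 by edgeR). SLC38A1 (SNAT1), its close relative, fell from 338 and 349 to 279 and 285 CPM (log2 fold change -0.28, SE 0.034, adjusted p = 1.93e-07 by edgeR). These 2 genes of one transport system thus moved in opposite directions in H1944. SLC38A7, a lysosomal glutamine carrier, rose from 21.3 and 23.7 to 39.3 and 35.1 CPM (log2 fold change 0.72, SE 0.079, adjusted p = 5.62e-08 by edgeR), and SLC38A6 and SLC38A10 rose with log2 fold changes of 0.49 and 0.26. SLC38A9, the lysosomal arginine sensor of mTORC1, did not pass, at 18.2 and 16.1 CPM in WT and 18.3 and 16.7 CPM in KO.

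The system N carriers SLC38A3 and SLC38A5, which move glutamine with sodium against protons, changed at low counts. SLC38A3 had 7 and 12 counts in H1944 WT and 25 and 34 in KO (log2 fold change 1.20, SE 0.46, adjusted p = 0.0263 by edgeR), and DESeq2 did not call it (adjusted p = 0.143). Without H1944 WT 1 or KO 2 its edgeR adjusted p was 0.244 and 0.172. SLC38A5 had 18 and 23 counts in WT and 10 and 5 in KO (log2 fold change -1.85, SE 0.52, adjusted p = 0.00366 by edgeR). Without H1944 WT 2 or KO 2 its edgeR adjusted p was 0.0629 and 0.0588. In A549, SLC38A3 had at most 1 count and SLC38A5 at most 12. SLC38A1 and SLC38A2 were higher in A549 WT 1 than in WT 2 and 3, with 319.5, 150.0 and 159 CPM for SLC38A1 in WT and 272, 268 and 164 CPM in KO 16, 65 and 66, and 449.8, 166 and 168 CPM for SLC38A2 in WT and 323, 451 and 227 CPM in KO. The A549 groups overlapped for both.

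Among the SLC36A carriers, SLC36A4 fell in H1944 from 62.9 and 65.98 to 52.8 and 55.6 CPM (log2 fold change -0.25, SE 0.053, adjusted p = 0.000289 by edgeR). SLC36A1, found on lysosomes, did not pass, at 9.57 and 10.2 CPM in WT and 11.8 and 10.9 CPM in KO. Among the SLC43A carriers, SLC43A1 (LAT3), a facilitative leucine carrier, had 2.08 and 2.38 CPM in WT and 0.986 and 0.872 CPM in KO of H1944 (log2 fold change -1.26, SE 0.32, adjusted p = 0.00139 by edgeR). SLC43A2 (LAT4), of the same function, did not pass and differed between the H1944 WT libraries, at 7.97 and 2.19 CPM, with 6.41 and 5.13 CPM in KO. In A549 it had 0.534, 18.9 and 19.9 CPM across WT 1, 2 and 3 versus 17.5, 1.73 and 29.2 CPM across KO 16, 65 and 66. A549 WT 1 and KO 65 were low, and their log2 difference from the other A549 libraries was -4.31 in the fit with the library set as a term.

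Each A549 KO library was also set against the WT libraries of its own set. Of the carriers tested in A549, SLC7A7, SLC6A16, SLC7A2, SLC6A14, SLC6A9, SLC36A1, SLC38A2, SLC38A6 and SLC38A9 had log2 ratios above 0 in all 3 KO libraries, and SLC1A4 had ratios below 0 in all 3. Over all genes tested in A549, 17.1% were above 0 in all 3 and 16.9% below. SLC7A11 had ratios of 0.89 (KO 16), -0.60 (KO 65) and -0.013 (KO 66), and SLC38A2 of 0.96 (KO 16), 0.0046 (KO 65) and 0.44 (KO 66), so KO 16 was the highest for both. The adjusted p of SLC6A16 with the library set as a term was 0.163 (edgeR) and that of SLC1A4 0.273.

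**Figure D4:**
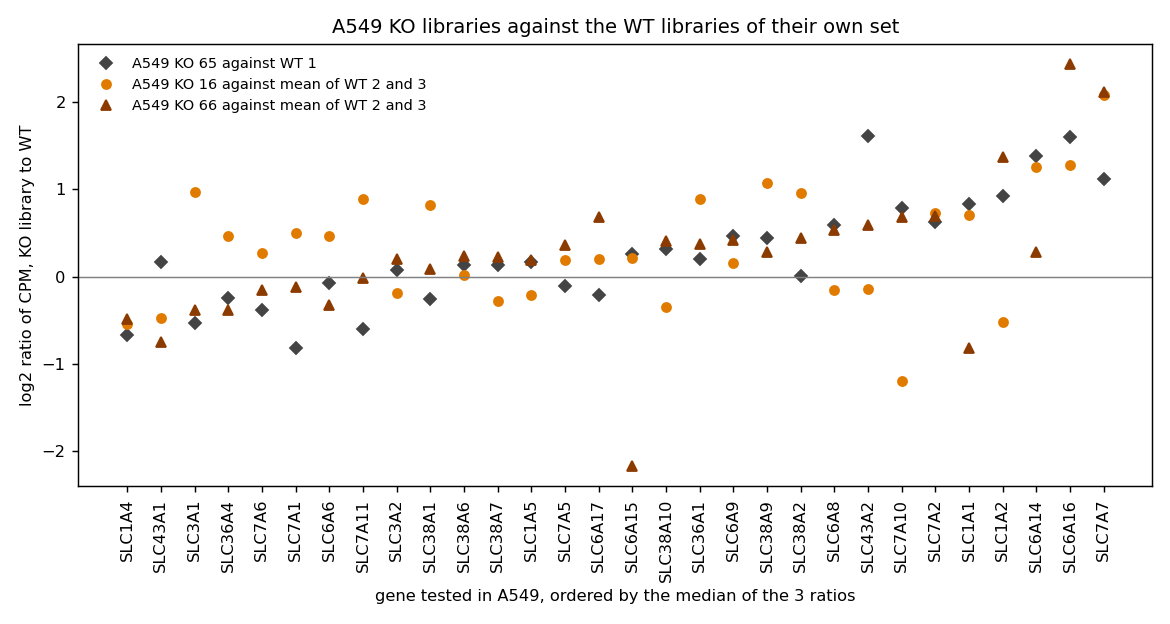
Log2 ratio of CPM of each A549 KO library to the WT libraries of its own set (y axis) for each carrier tested in A549 (x axis, ordered by the median ratio). KO 65 is set against WT 1 (diamonds), and KO 16 (circles) and KO 66 (triangles) against the mean of WT 2 and WT 3. SLC7A7 lies at the right end, with ratios of 1.12 to 2.12, and SLC1A4 at the left end, with ratios from -0.67 to -0.49.

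Across both lines, 36 carriers could be tested for a difference in the response to knockout, and 2 passed, SLC7A7 and SLC6A8, which is 5.56% against 6.95% of all 17677 genes tested (4.1% with the higher change in A549 and 2.85% with the lower). At an unadjusted p under 0.05 stood 5 carriers (all genes: 21.9%), and DESeq2 called SLC7A2 besides (all genes: 7.3% with the higher and 6.1% with the lower change in A549). For the other 34 carriers, among them all that passed in H1944 at less than 2-fold, the difference between the lines did not pass, and this does not show that the lines respond alike. The median absolute difference was 0.41 on the log2 scale over the tested carriers and 0.55 over all genes.

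Beside the G-run pattern of the promoter windows, 27 carriers tested in H1944 had a window. Of the 17 that hold the pattern, 8 rose and 6 fell, and of the 10 that do not, 2 rose and 4 fell. Over all genes tested in H1944 with a window, 39.7% of those with the pattern rose and 31.6% fell, against 32.5% and 34.8% of those without. Carriers that rose (SLC7A5, SLC38A2) and carriers that fell (SLC7A7, SLC6A8) both held it.

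Genes that work with these carriers were read from 6 lists. In A549, 0 genes of each list passed (edgeR), with 5 of 29, 3 of 25, 1 of 24, 3 of 37, 0 of 20 and 2 of 18 tested genes at an unadjusted p under 0.05 in the order below (all genes: 5.66%). DESeq2 called 1 regulator lower there, MYC (adjusted p = 0.0420, all genes: 0.279% lower). The values that follow are for H1944, where 33.2% of all genes rose and 33.9% fell. Of the amino acid response genes driven by the factor ATF4, 11 rose and 12 fell of 29 tested: STC2, a secreted glycoprotein (1.17), and the tryptophanyl tRNA synthetase gene WARS1 (0.92) rose, and ASNS, which makes asparagine from aspartate and glutamine (-1.07), and the stress gene NUPR1 (-1.45) fell, as log2 fold changes. ATF4 mRNA itself was at 783 ± 11.8 CPM and 809.5 ± 0.302 CPM in H1944 WT and KO (SD, n = 2; edgeR adjusted p = 0.163). The list's median log2 fold change was -0.018, near that of all genes (-0.0065).

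Of the cystine and glutathione genes, 9 rose and 11 fell of 24 tested (median log2 fold change -0.063). The glutathione peroxidase gene GPX2 (-4.34) and the glutathione reductase gene GSR (-1.68) fell beside SLC7A11, while NQO1, a quinone reductase (1.08), and GGT5, which cleaves glutathione conjugates (1.57), rose. Of the glutamine, glutamate and asparagine enzymes, 6 rose and 10 fell of 23 tested (median -0.041). GLUL, glutamine synthetase (-1.68), the alanine aminotransferase gene GPT (-3.56) and ASNS fell, and CTPS1, which uses glutamine to make CTP (1.28), rose. Of the genes of amino acid sensing by mTORC1, 20 rose and 6 fell of 37 tested (median 0.17). The leucine sensor gene SESN2 (1.38) and its relative SESN1 (1.45) rose, and CASTOR2, a relative of the arginine sensor CASTOR1 (-1.03), and the Ragulator subunit gene LAMTOR3 (-1.30) fell.

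Of the amino acid carriers of other families, 10 rose and 7 fell of 20 tested (median 0.34). The mitochondrial serine carrier relative SFXN3 (0.93), the lysosomal peptide carrier SLC15A3 (2.42) and MFSD12, which carries cysteine into melanosomes and lysosomes (1.501), rose, and the mitochondrial aspartate and glutamate carrier SLC25A13 (-0.70) fell. Without H1944 WT 1 or KO 1, and by DESeq2, 4 rather than 7 of this list fell. Of the regulators and partners, 9 rose and 6 fell of 18 tested (median 0.28). CD44, whose variant forms bind the SLC7A11 protein (1.70), the oxygen-regulated factors EPAS1 (1.05) and HIF1A (0.90) and the kinase EIF2AK2 (1.13) rose. With all 10 libraries in 1 fit the counts of these 6 lists in H1944 were at most 4 in either direction.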

How the data were processed

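Poly(A) RNA of 2 human lung adenocarcinoma cell lines was sequenced as 150 bp pairs, per the labels' protocols. The authors deposited raw counts per gene symbol, 1 table a line. Trim Galore 0.5.0, HISAT2 2.1.0, featureCounts 1.6.4, DESeq2 and hg38 are named in the submitters' processing notes. Strand setting, annotation and treatment of reads with several matches are not given in the sources used here.

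From the counts, each line was fitted with edgeR 4.0.16 (R 4.3.3): robust quasi-likelihood test, TMM scaling, low-count filter at 10 counts, KO against WT, Benjamini-Hochberg adjustment over all genes tested. Passing means an adjusted p under 0.05. The difference between lines is the interaction in a fit of all 10 libraries. The SE is the log2 fold change divided by the root of F. CPM are scaled by TMM within each line, so levels of the lines are not on a common scale. Levels per kb use the union of GENCODE v29 exons, and log2 ratios within library sets add 0.05 CPM. Gene coordinates and promoter windows are RefSeq's, on GRCh38.p14. Between exact permutations of the libraries, the smallest p possible is 0.1 in A549 and 0.333 in H1944, so single genes were not tested that way. Every pair of replicates differed by more than sampling noise, but by unlike amounts. The chi-square per gene was 1.88 between A549 WT 2 and WT 3, and 241 and 238 between WT 1 and these. Between A549 KO libraries it was 136 to 276, and in H1944 it was 3.31 (WT) and 2.91 (KO). A549 WT 2 and WT 3 were thus far closer to each other than any other A549 replicates, and may not count as independent. The H1944 pairs, at 3.31 and 2.91, were also far closer than those other A549 replicates. They too may not count as independent, which bears on every call in H1944. Totals of 18314224 to 30219850 counts set a floor of 3 counts at 0.0993 to 0.164 CPM, for counting error only.

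The members and all gene lists were chosen with earlier results of these data known. Values in every library were planned for SLC7A5, SLC7A7, SLC7A11, both heavy chains and their other light chains, carriers that passed in A549, at least 2-fold in H1944 or between lines, and A549 carriers without overlap at a log2 fold change of at least 1. Other carriers were named by role after their values were seen. Of each other list up to 4 genes with the smallest adjusted p in H1944 are named. Alternatives were RLE scaling, no filter, DESeq2 1.42.0, limma-voom (limma 3.58.1), 1 fit of all 10 libraries, the replicate block, each library left out, and the A549 library set as a term or each set alone.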

Additional observations from a re-analysis of the deposited data

Results flagged for a closer look

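The response of SLC7A7 to APE1 knockout differed between the lines. The A549 change minus the H1944 change was 3.46 on the log2 scale (edgeR adjusted p = 0.000822), with CPM higher in 3 of 3 A549 KO libraries than in any A549 WT library and lower in 2 of 2 H1944 KO libraries than in any H1944 WT library. With single libraries left out the difference ran from 3.30 to 3.69 and its adjusted p from 0.000193 to 0.0113.

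For SLC6A8 the same difference was 1.995 (edgeR adjusted p = 0.00917). It came from the fall in H1944, seen in 2 of 2 KO libraries, while A549 KO 16 lay inside the range of the A549 WT libraries. With single libraries left out it ran from 1.86 to 2.19 and missed the threshold without H1944 WT 1, KO 1 or KO 2, at adjusted p = 0.0521, 0.0643 and 0.0682. Medium differs with the line for both genes and cannot be told apart from it.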

How the results depend on the processing

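In A549, 0 carriers passed under the main fit, RLE scaling, no filter, limma-voom or any left-out library, 2 were higher by DESeq2 (SLC7A7, SLC6A16) and 1 with all 10 libraries in 1 fit (SLC7A7). In H1944 that fit left 0 higher and 3 lower (SLC7A7, SLC6A8, SLC43A1), since it takes its spread from both lines. With single libraries left out, 11 to 12 carriers were higher and 12 to 15 lower in H1944. The number of carriers higher in the difference between lines ran from 1 (without H1944 WT 1, KO 1 or KO 2) to 4 (without A549 WT 1).

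A549 log2 fold changes that turned sign were all small or uneven between libraries, and the cause was not tested. SLC3A1 gave -0.0028 under RLE scaling and DESeq2 and -0.54 in the set with RNA28SN4 (-0.30 to 0.48 with libraries left out). SLC3A2 gave -0.0070 under RLE scaling and DESeq2, -0.0059 without a filter, -0.0014 with all 10 libraries and -0.031 in the set without RNA28SN4 (-0.21 to 0.21). SLC7A6 gave 0.026 (-0.21 to 0.056) and SLC7A10 -0.0087 (-0.15 to 0.66) in the set without RNA28SN4. SLC7A11 gave 0.091 by limma-voom, 0.14 with the set as a term and 0.46 in the set without RNA28SN4 (-0.29 to 0.65). In the set with RNA28SN4, SLC7A5 gave -0.11 and SLC43A1 0.17. With libraries left out SLC7A2 ran from -0.37 to 1.74. Between lines SLC7A8 ran from -0.42 to 1.08, SLC38A3 from -3.17 to 0.76 and SLC38A5 from -0.48 to 2.21.

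The deviations of H1944 WT 1 and KO 1 from their group means had a correlation of 0.0210 over genes. With 2 libraries a group, this value cannot show whether replicate numbers pair the samples. The replicate block gave 12 carriers higher and 14 lower, at a biological coefficient of variation of 3.96% against 4.74% without it. No paired analysis was possible in A549 because its KO columns share no replicate numbers with WT. Depth limits carriers near the floor, such as SLC7A9, SLC38A3 and SLC38A5.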
